A study of Homo sapiens with 4 samples.

Results

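Replication-dependent histone genes encode the bulk histones that package newly copied DNA. In the gene expression tables of a QKI knockdown in BEAS2B cells, 59 of the 16708 listed genes carried symbols of this family, chosen as all symbols that begin with HIST1H, HIST2H, HIST3H or HIST4H. They comprised 6 genes for the linker histone H1, 14 for H2A, 17 for H2B, 11 for H3 and 11 for H4. By gene cluster, 51 belonged to HIST1, 4 to HIST2, 3 to HIST3 and 1 to HIST4. The RNA-Seq data comprised 4 libraries, 2 of control cells (sh-Ctrl) and 2 of QKI-knockdown cells (sh-QKI). BEAS2B is a virus-transformed line of human bronchial epithelium, used here at passages 15 to 18 and grown with 10% fetal bovine serum. The control cells stably expressed an shRNA against luciferase from a retrovirus, and the knockdown cells expressed 1 shRNA against all isoforms of QKI, an RNA-binding protein that regulates splicing. The same virus-transformed line and the same retroviral shRNA delivery were thus common to both groups, the knockdown rested on 1 shRNA, and the labels do not state whether the replicates were grown separately, so the spread between them may be technical.

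Each nucleosome wraps DNA around an octamer of H2A, H2B, H3 and H4, and H1 binds the linker DNA between nucleosomes. Most replication-dependent histone genes lie in clusters and lack introns, and their mRNAs are made mainly during S phase. Instead of a poly(A) tail these mRNAs end shortly after a conserved stem-loop, which is bound by the stem-loop binding protein SLBP and cut with the help of the U7 snRNP. Some of the genes also give longer, polyadenylated transcripts. The TruSeq RNA kit named in the labels selects polyadenylated RNA, so the values below measure what such a library captured of these transcripts, not the whole pool of histone mRNA.

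The conserved 3′ stem-loop was read from the genome for the members that matched an annotated gene. In GRCh37, which has the same coordinates as the hg19 build of the files, 56 of the 59 members matched, 30 by Ensembl identifier and 26 by an older symbol. The search was for a 5′ arm of 6 bases that begins with GG and ends with T, a loop of 4 bases and the complementary 3′ arm, on the sense strand within 150 bases after the stop codon. It was found in 54 of the 56 members (96.4%) and in 38 of 15748 other genes (0.241%). *HIST1H2AG* and *HIST1H2AK* had no match in this window. The sequences below show how the types differ and which genes carried the values described later, with the paired stem arms in capitals and 5 flanking bases on each side.

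HIST1H4B, chr6:26027124-26027149, minus strand: ccaatGGCCCTtttcAGGGCCgccca
HIST1H4C, chr6:26104540-26104565, plus strand: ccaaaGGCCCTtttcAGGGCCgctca
HIST1H4H, chr6:26285354-26285379, minus strand: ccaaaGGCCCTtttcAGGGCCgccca
HIST1H3B, chr6:26031820-26031845, minus strand: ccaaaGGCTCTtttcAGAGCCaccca
HIST1H2BL, chr6:27775257-27775282, minus strand: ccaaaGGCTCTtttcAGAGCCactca
HIST1H2BO, chr6:27861643-27861668, plus strand: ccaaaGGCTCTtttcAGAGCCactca
HIST1H2BK, chr6:27114140-27114165, minus strand: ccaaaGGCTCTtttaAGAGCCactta
HIST2H2BE, chr1:149857733-149857758, minus strand: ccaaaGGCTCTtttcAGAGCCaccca
HIST1H2AC, chr6:26124892-26124917, plus strand: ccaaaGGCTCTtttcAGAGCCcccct
HIST1H1C, chr6:26055967-26055992, minus strand: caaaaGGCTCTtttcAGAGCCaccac

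The stem separated H4 from the other types. All 10 H4 members with a match had the 5′ arm GGCCCT, whereas the 44 members of the other types (6 of H1, 12 of H2A, 15 of H2B and 11 of H3) had GGCTCT. The loop was TTTC in most members of every type. It was TTTA in 4 of 15 H2B members, including *HIST1H2BK*, and in 2 of 6 H1, 1 of 12 H2A and 2 of 11 H3 members. The stem-loops began between 22 and 62 bases after the stop codon, with a median of 35. All 54 lay inside an annotated exon, and the results below therefore compare genes that nearly all carry this element.

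The library totals recovered from the RPKM values (reads scaled by gene length and by the library total) were 20052951 and 34706058 reads for the control libraries and 20571555 and 34862008 reads for the QKI-knockdown libraries. *QKI* itself was at 8.94 and 14.6 RPKM in the control libraries and 2.52 and 3.85 RPKM in the QKI-knockdown libraries, a log2 fold change of -1.72 (SE 0.38) on the scale log2(RPKM + 0.5). The epithelial keratins *KRT8*, *KRT18* and *KRT7* were present in all libraries at 20.7 RPKM or more, *EPCAM* was at 0.619 to 0.811 RPKM, *CDH1* reached at most 0.181 RPKM and *KRT5* was not listed. Of 5 fibroblast markers only *COL1A1* was above 0.5 RPKM, with 51.5 and 18.6 RPKM in the control libraries and 54.1 and 29.5 RPKM in the QKI-knockdown libraries, and its part in the results was not tested. Leukocyte, endothelial, ciliated or secretory and testis marker genes were under 0.5 RPKM in every library, with the exception of the leukocyte gene *CD14* (0.794 to 5.22 RPKM) and the meiosis gene *SYCP3* (0.316 to 0.799 RPKM). Libraries with the same replicate number resembled each other more than libraries of the same group did. The SD over all tested genes of the log2 difference between the groups was 0.196 in replicate 1 and 0.208 in replicate 2, whereas between replicates 1 and 2 it was 0.812 in control and 0.660 in QKI-knockdown cells, so values within each replicate number are given throughout.

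Histone transcripts were scarce in all 4 libraries, and within each replicate number their sum was lower after QKI knockdown, most clearly in replicate 2, where H4 and H3 had the lowest read ratios of the 5 types. The 59 members summed to 52.7 and 82.2 RPKM in the control libraries and 47.5 and 56.4 RPKM in the QKI-knockdown libraries, or 67.4 ± 20.9 against 52.0 ± 6.30 RPKM (mean ± SD, n = 2 each). Replicate 2 was above replicate 1 in both groups, and the groups overlapped, since the QKI-knockdown library of replicate 2 exceeded the control library of replicate 1. The members made up 0.0210% to 0.0438% of all RPKM in a library. Expressed as whole reads, their levels were 1003 and 2959 control reads and 953 and 2233 QKI-knockdown reads. The ratio of QKI-knockdown to control reads, each per library total, was 0.926 (interval 0.847 to 1.01) in replicate 1 and 0.751 (interval 0.711 to 0.794) in replicate 2, where the interval is the exact 95% Clopper-Pearson interval and covers counting error only. The interval thus included equality in replicate 1 and lay below it in replicate 2. In bulk libraries such as these, fewer cells that express a gene and less RNA per cell cannot be told apart.

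**Figure D1:**
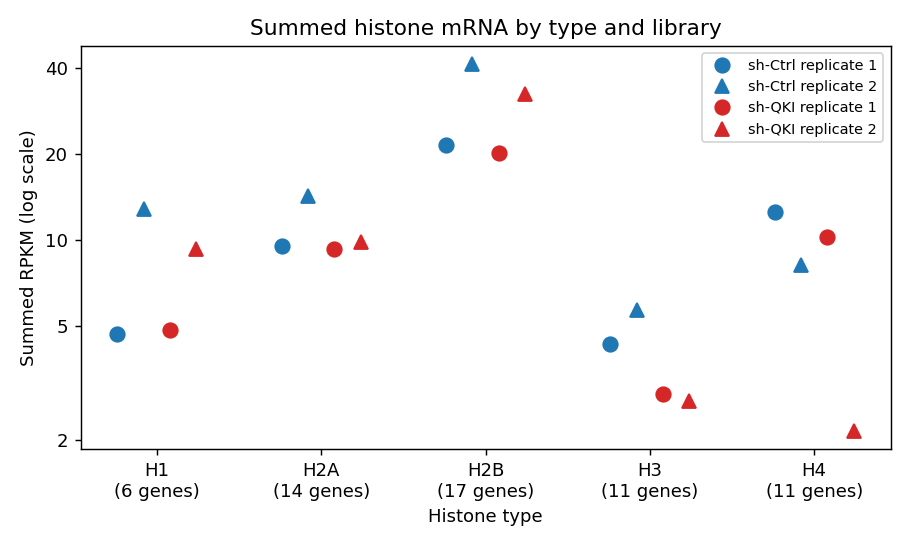
Summed RPKM (log scale) of the histone genes of each type in each of the 4 libraries, with blue points for control and red points for QKI-knockdown libraries, circles for replicate 1 and triangles for replicate 2. H3 was the 1 type in which both QKI-knockdown libraries lay below both control libraries, and the groups were furthest apart for H4 in replicate 2 (8.16 against 2.15 RPKM).

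Gene by gene, 24 of the 59 members reached a mean of 0.5 RPKM over the 4 libraries and were tested with all other genes of that level. Limma without a block called 0 of them lower and 0 higher at an adjusted p under 0.05, as it called 0% of the 11829 genes tested in either direction. Without adjustment for the number of genes, limma gave 9 lower and 4 higher genes at the same threshold, of which 2 lower (*HIST1H2BL* and *HIST1H4C*) and 0 higher were members. A fit that included the replicate number called 6 members lower (0.364% of all genes tested) and 0 higher (0.49%), and with median centring as well 7 lower (0.558%) and 0 higher (0.406%). With voom on the recovered reads, the fit with the number called 3 lower (0.575%) and 0 higher (0.583%). These fits assume that the replicate numbers pair the libraries, which the labels do not state. The median log2 fold change of the 24 members was -0.25, with -0.12 within replicate 1 and -0.48 within replicate 2, beside 0.033, 0.020 and 0.045 over all genes tested. Of the 24 members, 16 were lower within replicate 1 and 24 within replicate 2, beside 45.5% and 39.4% of all genes tested. Lower within both numbers were 16 members and higher within both 0, beside 16.6% and 31.7% of all genes tested. Both QKI-knockdown libraries lay below both control libraries for 9 members (2.89% of all genes tested) and above them for 0 (5.71%). The 24 members were selected on a mean that includes both groups, and 5 of them had a QKI-knockdown mean under 0.5 RPKM. These 5 (*HIST1H1E*, *HIST1H2BG*, *HIST1H2BL*, *HIST1H3B* and *HIST1H4C*) entered the test through their control level. They include both members with an unadjusted p under 0.05. All but *HIST1H1E* were also among the 6 called with the replicate number, so these calls carry that limit.

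**Figure D2:**
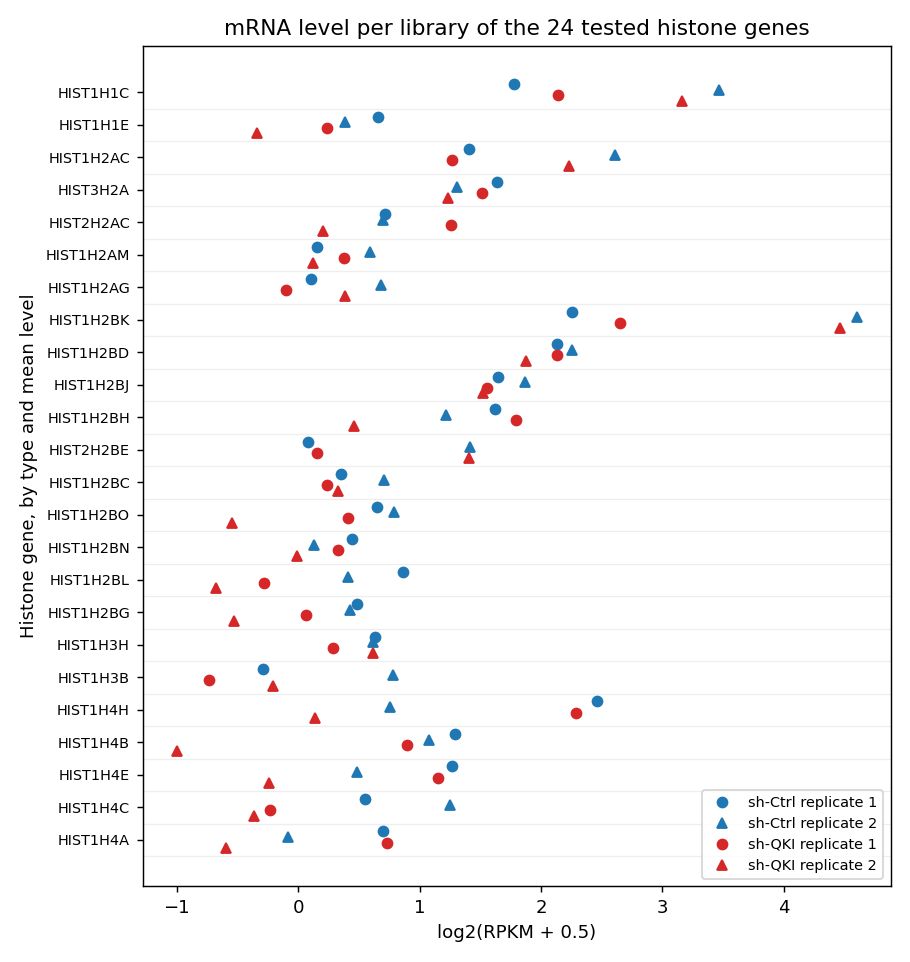
log2(RPKM + 0.5) of the 24 tested histone genes in each library, ordered by type and mean level, with blue for control, red for QKI knockdown, circles for replicate 1 and triangles for replicate 2. In replicate 2 the red triangle lies left of the blue triangle for all 24 genes, while in replicate 1 the red circle lies left of the blue circle for 16.

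On group means, 32 members reached 0.5 RPKM in at least 1 group. Of these, 11 were over 2-fold lower after knockdown and 0 over 2-fold higher, beside 0.335% lower and 0.234% higher of the 11955 genes at that level. However, 13 of the 32 reached this limit through the control group alone, and had to be lower after knockdown, whereas 0 reached it through the QKI-knockdown group alone. Among the 19 members that reached it in both groups, 2 were over 2-fold lower, *HIST1H2BO* and *HIST1H4B*. Within replicate 1, 8 members were over 2-fold lower (0.435% of all genes) and 0 higher (0.468%), and within replicate 2, 17 were lower (0.56%) and 0 higher (0.552%). Both numbers gave a lower value of this size for 7 members (0.159% of all genes) and a higher value for 0 (0.109%). The 7 were *HIST1H1B*, *HIST1H2AI*, *HIST1H2BI*, *HIST1H2BL*, *HIST1H3B*, *HIST1H4C* and *HIST1H4D*, and all 7 had at most 27 reads in any library. All 8 members of replicate 1, 12 of the 17 of replicate 2 and all 7 shared by both numbers had reached 0.5 RPKM through the control group alone, so these counts carry the same limit as those on group means.

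**Figure D3:**
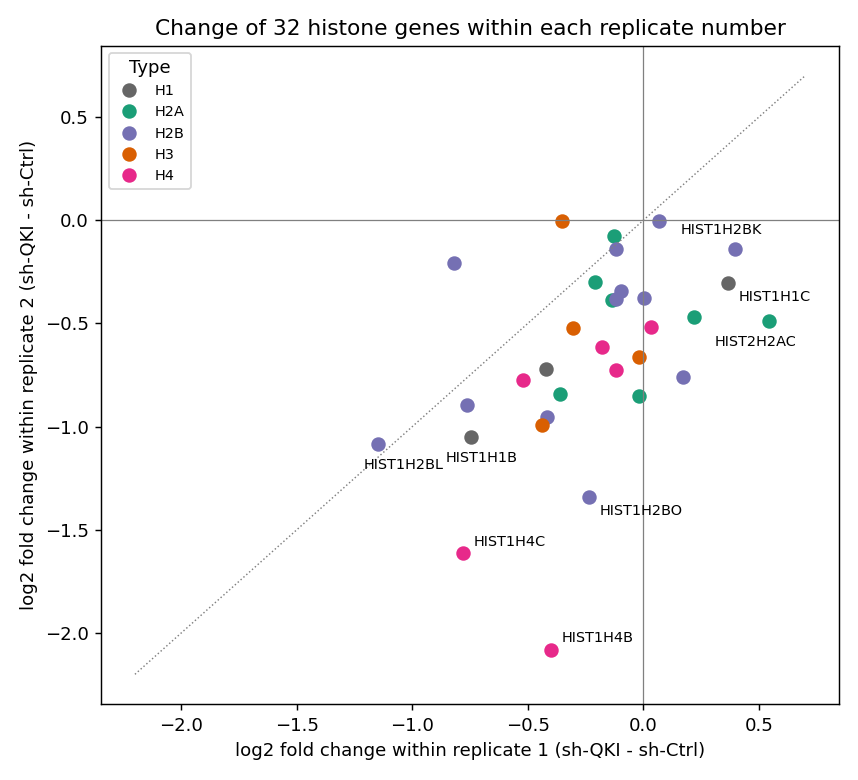
log2 fold change (QKI knockdown minus control, on log2(RPKM + 0.5)) of the 32 histone genes that reached 0.5 RPKM in at least 1 group mean, within replicate 1 (horizontal axis) and replicate 2 (vertical axis), coloured by type. The dotted line marks equal change. Most points lie below it, and *HIST1H4B* (-0.40 and -2.08) and *HIST1H2BO* (-0.23 and -1.34) lie furthest from it.

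H4 forms with H3 the tetramer at the centre of the nucleosome, and its summed level was lowest of all types in the QKI-knockdown library of replicate 2. The 11 H4 genes summed to 12.6 and 8.16 RPKM in the control libraries and 10.3 and 2.15 RPKM in the QKI-knockdown libraries. Their reads numbered 264 and 217 control reads and 228 and 83 QKI-knockdown reads, a ratio of 0.842 (interval 0.702 to 1.01) in replicate 1 and 0.381 (interval 0.292 to 0.493) in replicate 2. The H4 sum was also lower in replicate 2 than in replicate 1 of the same group, to 0.650 times in control and 0.209 times in QKI-knockdown cells, unlike that of the other types in control cells. All 5 tested H4 genes had a log2 fold change below 0, from -1.24 to -0.24. The H4 difference was larger in replicate 2. Leaving out the QKI-knockdown library of replicate 2 moved the median over these 5 genes to -0.0076 (log2 fold change) and the log2 ratio of the H4 sums to -0.015. These values set the QKI-knockdown library of replicate 1 against both control libraries, of which that of replicate 2 had the lower H4 sum. Within replicate 1 alone the median was -0.18, the ratio of the H4 sums was 0.816 and 4 of the 5 genes were lower.

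*HIST1H4B* (chr6:26027124-26027480, minus strand, a single exon) was at 1.96 and 1.61 RPKM in the control libraries and 1.36 and 0 RPKM in the QKI-knockdown libraries. The last of these stands for 0 reads, which allows up to 0.241 RPKM (3 reads). Its counts were 14 and 20 control reads and 10 and 0 QKI-knockdown reads, a small gap in replicate 1 and a wide one in replicate 2. *HIST1H4C* (chr6:26104161-26104565, plus strand, a single exon) was at 0.961 and 1.87 RPKM in the control libraries and 0.351 and 0.276 RPKM in the QKI-knockdown libraries, and both QKI-knockdown libraries lay well below both control libraries. Its counts were 8 and 27 control reads and 3 and 4 QKI-knockdown reads, and its log2 fold change of -1.20 (SE 0.33) was -0.78 within replicate 1 and -1.61 within replicate 2. *HIST1H4D* had 0.408 and 1.02 RPKM in the control libraries and 0.132 and 0.391 RPKM in the QKI-knockdown libraries, with few reads in each (at most 13).

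*HIST1H4H*, the H4 gene with the highest mean over the 4 libraries, was at 5.02 and 1.19 RPKM in the control libraries and 4.38 and 0.601 RPKM in the QKI-knockdown libraries, below *HIST1H4C* and *HIST1H4B* in the control library of replicate 2. Its level followed the replicate number more than the group, and it was lower within both, by log2 fold changes of -0.18 and -0.62. *HIST1H4E* showed the same arrangement, with 1.91 and 0.900 RPKM in the control libraries and 1.73 and 0.346 RPKM in the QKI-knockdown libraries. *HIST1H4A* was at 1.12 and 0.446 RPKM in the control libraries and 1.16 and 0.161 RPKM in the QKI-knockdown libraries, nearly equal in replicate 1 and lower in replicate 2. The exons of *HIST1H4H* overlap those of another annotated gene, and no source used here tells whether the authors' counting separated strands.

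H3, the partner of H4 in the tetramer, had the lowest sum of the core histones in the control libraries. The 11 H3 genes summed to 4.33 and 5.70 RPKM in the control libraries and 2.88 and 2.74 RPKM in the QKI-knockdown libraries, and both QKI-knockdown libraries lay below both control libraries. The exact permutation test of 2 against 2 libraries gave p = 0.333 (two-sided), the smallest this design allows. Reads were few, 55 and 118 control reads and 40 and 56 QKI-knockdown reads, with ratios of 0.709 (interval 0.460 to 1.08) and 0.472 (interval 0.337 to 0.655) in replicates 1 and 2. *HIST1H3B* (chr6:26031817-26032327, minus strand) was at 0.317 and 1.22 RPKM in the control libraries and 0.103 and 0.365 RPKM in the QKI-knockdown libraries. Its QKI-knockdown library of replicate 2 exceeded the control library of replicate 1, so the groups overlapped although the gene was lower within both numbers (log2 fold changes -0.44 and -0.99). *HIST1H3H*, the H3 gene with the highest mean over the 4 libraries but below *HIST1H3B* in the control library of replicate 2, was at 1.05 and 1.04 RPKM in the control libraries and 0.719 and 1.03 RPKM in the QKI-knockdown libraries, with a log2 fold change of -0.35 in replicate 1 and -0.0044 in replicate 2. *HIST1H3D* was at 0.586 and 0.542 RPKM in the control libraries and 0.381 and 0.225 RPKM in the QKI-knockdown libraries and *HIST1H3G* at 0.534 and 0.679 RPKM in the control libraries and 0.520 and 0.246 RPKM in the QKI-knockdown libraries.

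H2B, which pairs with H2A on the outside of the tetramer, was the most abundant type, and 1 of its genes held a large share of its level in replicate 2. The 17 H2B genes summed to 21.6 and 41.3 RPKM in the control libraries and 20.2 and 32.4 RPKM in the QKI-knockdown libraries, with read ratios of 0.995 (interval 0.869 to 1.14) and 0.838 (interval 0.780 to 0.901). *HIST1H2BK* (chr6:27114140-27114634, minus strand) held 19.8% and 57.4% of the H2B RPKM in control replicates 1 and 2, beside 28.6% and 66.3% after knockdown. It was at 4.28 and 23.7 RPKM in the control libraries and 5.79 and 21.5 RPKM in the QKI-knockdown libraries, so its level followed the replicate number, and it was higher after knockdown in replicate 1 (log2 fold change 0.40) and lower in replicate 2 (-0.14). Its own read ratio was 1.35 (interval 1.04 to 1.76) in replicate 1 and 0.907 (interval 0.828 to 0.994) in replicate 2. Both values exceed those of the family, so leaving the gene out must lower the family ratio. Without *HIST1H2BK* the 58 other members had a read ratio of 0.877 (interval 0.797 to 0.966) in replicate 1 and 0.673 (interval 0.628 to 0.722) in replicate 2, so that both intervals lay below 1.

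Most of the more abundant H2B genes differed by less than 2-fold within each replicate number. *HIST1H2BD* was at 3.88 and 4.26 RPKM in the control libraries and 3.89 and 3.17 RPKM in the QKI-knockdown libraries. *HIST1H2BJ* was at 2.63 and 3.15 RPKM in the control libraries and 2.43 and 2.38 RPKM in the QKI-knockdown libraries, and both QKI-knockdown libraries were below both control libraries by a small margin. *HIST2H2BE*, a gene of the HIST2 cluster, was at 0.561 and 2.16 RPKM in the control libraries and 0.612 and 2.15 RPKM in the QKI-knockdown libraries, with log2 fold changes of 0.068 and -0.0053. It ranked with *HIST1H2BK* among the genes that followed the replicate number and not the group. *HIST1H2BH* was higher in replicate 1 and lower in replicate 2, with 2.58 and 1.83 RPKM in the control libraries and 2.97 and 0.877 RPKM in the QKI-knockdown libraries.

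Larger differences were found among H2B genes of low level. *HIST1H2BL* (chr6:27775257-27775707, minus strand, a single exon) was at 1.32 and 0.827 RPKM in the control libraries and 0.322 and 0.127 RPKM in the QKI-knockdown libraries, and both QKI-knockdown libraries were below both control libraries by similar amounts in the 2 numbers (log2 fold changes -1.15 and -1.08). Its counts were 12 and 13 control reads and 3 and 2 QKI-knockdown reads. *HIST1H2BO* (chr6:27861203-27861669, plus strand) was at 1.07 and 1.23 RPKM in the control libraries and 0.833 and 0.184 RPKM in the QKI-knockdown libraries, close to control in replicate 1 and far below it in replicate 2. *HIST1H2BG* had 0.897 and 0.842 RPKM in the control libraries and 0.546 and 0.193 RPKM in the QKI-knockdown libraries, again with the lowest value in the QKI-knockdown library of replicate 2. *HIST1H2BI* had 0.521 and 0.541 RPKM in the control libraries and 0.101 and 0.0599 RPKM in the QKI-knockdown libraries, and each of its libraries held at most 9 reads. *HIST1H2BF* was lower mainly in replicate 1, with 0.668 and 0.410 RPKM in the control libraries and 0.163 and 0.288 RPKM in the QKI-knockdown libraries. The remaining H2B genes at this level showed smaller gaps, with 0.778 and 1.14 RPKM in the control libraries and 0.678 and 0.754 RPKM in the QKI-knockdown libraries for *HIST1H2BC*. *HIST1H2BN* was at 0.863 and 0.598 RPKM in the control libraries and 0.757 and 0.496 RPKM in the QKI-knockdown libraries.

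H2A, the partner of H2B, differed little between the groups in replicate 1 and was lower after knockdown in replicate 2. Its 14 genes summed to 9.50 and 14.3 RPKM in the control libraries and 9.32 and 9.83 RPKM in the QKI-knockdown libraries, and the lowest control library and both QKI-knockdown libraries were within 1 RPKM of each other. The read ratios were 0.917 (interval 0.741 to 1.13) and 0.721 (interval 0.638 to 0.814). *HIST1H2AC* was at 2.15 and 5.61 RPKM in the control libraries and 1.91 and 4.18 RPKM in the QKI-knockdown libraries and *HIST1H2AG* at 0.579 and 1.11 RPKM in the control libraries and 0.434 and 0.807 RPKM in the QKI-knockdown libraries, both lower within each number and higher in replicate 2 of each group. *HIST3H2A* was at 2.61 and 1.98 RPKM in the control libraries and 2.35 and 1.85 RPKM in the QKI-knockdown libraries, with log2 fold changes of only -0.13 and -0.074. *HIST1H2AE* was at 0.456 and 0.685 RPKM in the control libraries and 0.444 and 0.157 RPKM in the QKI-knockdown libraries, close to control in replicate 1 and lower in replicate 2. *HIST1H2AM*, whose exons overlap those of *HIST1H3J*, was at 0.614 and 1.01 RPKM in the control libraries and 0.799 and 0.589 RPKM in the QKI-knockdown libraries, and its groups overlapped. *HIST2H2AC* was higher after knockdown in replicate 1 and lower in replicate 2, with 1.14 and 1.12 RPKM in the control libraries and 1.89 and 0.656 RPKM in the QKI-knockdown libraries. *HIST1H2AI*, over 2-fold lower within both numbers, was at 0.376 and 0.977 RPKM in the control libraries and 0.183 and 0.324 RPKM in the QKI-knockdown libraries, but only 36.5% of its 50-base windows occur once in the genome.

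Most of the linker histone H1 signal came from 1 gene. *HIST1H1C* (chr6:26055968-26056698, minus strand, a single exon), which encodes H1.2, held 62.2% to 91.3% of the H1 RPKM in a library. It was at 2.93 and 10.5 RPKM in the control libraries and 3.92 and 8.46 RPKM in the QKI-knockdown libraries, higher after knockdown in replicate 1 and lower in replicate 2 (log2 fold changes 0.37 and -0.30). *HIST1H1E*, which encodes H1.4, was at 1.08 and 0.808 RPKM in the control libraries and 0.681 and 0.292 RPKM in the QKI-knockdown libraries, and *HIST1H1B*, which encodes H1.5, at 0.442 and 0.912 RPKM in the control libraries and 0.0615 and 0.182 RPKM in the QKI-knockdown libraries. Both of these genes had QKI-knockdown libraries below their control libraries. All 6 H1 genes summed to 4.71 and 12.9 RPKM in the control libraries and 4.85 and 9.27 RPKM in the QKI-knockdown libraries, with read ratios of 1.02 (interval 0.724 to 1.43) and 0.716 (interval 0.603 to 0.848). *HIST1H1C* itself had read ratios of 1.34 and 0.802, above those of all 6 genes, so leaving it out must lower the ratios. Without *HIST1H1C* the 5 other H1 genes summed to 1.78 and 2.31 RPKM in the control libraries and 0.930 and 0.809 RPKM in the QKI-knockdown libraries, so that both QKI-knockdown libraries lay below both control libraries. Their read ratios, on 28 and 63 control reads and 15 and 22 QKI-knockdown reads, were 0.522 (interval 0.259 to 1.01) and 0.348 (interval 0.204 to 0.573), with intervals that overlapped those of H3 and H4 in both numbers.

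**Figure D4:**
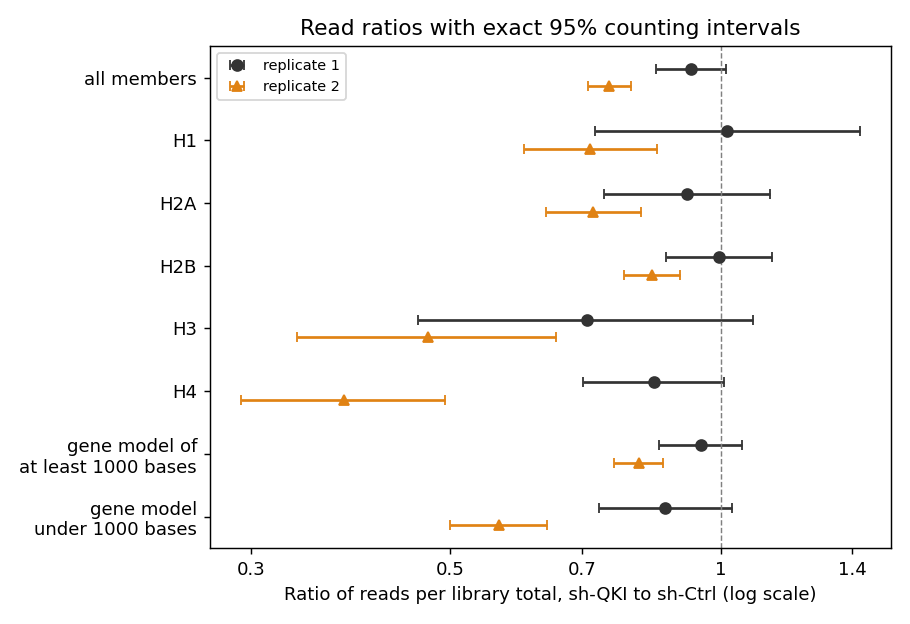
Ratio of QKI-knockdown to control reads, each per library total (log scale), within replicate 1 (circles) and replicate 2 (triangles), for all 59 histone genes, for each type and for genes with a recovered model length of at least or under 1000 bases. Bars are exact 95% counting intervals and the dashed line marks equality. Replicate 2 lies below replicate 1 in every row, and its H4 interval (0.292 to 0.493) lies below those of H1, H2A and H2B.

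Across types, the counting intervals of replicate 2 separated H3 and H4 from H2B, whereas those of replicate 1 overlapped for all 5 types. Intervals count reads of 1 library pair and not the spread between cultures, so the order of the types rests on replicate 2. By cluster, the HIST1 genes on chromosome 6 followed the family as a whole, with read ratios of 0.927 (interval 0.843 to 1.02) and 0.735 (interval 0.694 to 0.779). The 4 HIST2 genes had ratios of 1.06 (interval 0.750 to 1.51) and 0.919 (interval 0.752 to 1.12), and the 3 HIST3 genes of 0.807 (interval 0.450 to 1.44) and 0.917 (interval 0.562 to 1.49), with intervals that included 1 in both numbers. The single HIST4 gene, *HIST4H4*, had at most 15 reads per library.

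Within HIST1, gaps of over 300000 bases divide the matched genes into 3 segments. The segment at chr6:26017260-26285866, with 28 members, had read ratios of 0.913 (interval 0.811 to 1.03) and 0.644 (interval 0.589 to 0.703). The segment at chr6:27093676-27115341, with 5 members including *HIST1H2BK*, had 1.11 (interval 0.915 to 1.35) and 0.870 (interval 0.801 to 0.945). The segment at chr6:27775257-27861669, with 15 members including *HIST1H2BL* and *HIST1H2BO*, had 0.709 (interval 0.506 to 0.989) and 0.488 (interval 0.368 to 0.643). It was the only segment whose intervals lay below 1 in both numbers, on 88 and 64 reads in replicate 1. However, its intervals overlapped those of the segment with 28 members in both numbers.

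By the length behind each RPKM value, the shorter genes together had a lower ratio than the longer ones in replicate 2, and within a type this held for H2B and H4. This length, by which the authors divided the reads, was recovered from the values, and it was at least 1000 bases for 15 members, beyond the usual length of a histone mRNA that ends at the stem-loop. These 15 had read ratios of 0.95 (interval 0.855 to 1.06) and 0.810 (interval 0.761 to 0.862). The 44 shorter members had 0.868 (interval 0.731 to 1.03) and 0.566 (interval 0.499 to 0.640), and the intervals overlapped in replicate 1 but not in replicate 2. Within H2B, the 7 longer genes had 0.870 (interval 0.809 to 0.937) in replicate 2 and the 10 shorter genes 0.338 (interval 0.222 to 0.504). Within H4, the 4 longer genes had 0.498 (interval 0.368 to 0.668) and the 7 shorter genes 0.168 (interval 0.0856 to 0.305). The intervals overlapped within H2A, with 0.742 (interval 0.648 to 0.850) for 2 longer and 0.638 (interval 0.477 to 0.848) for 12 shorter genes. They also overlapped within H3, where the 9 shorter genes had the higher value, 0.491 (interval 0.322 to 0.737) against 0.440 (interval 0.242 to 0.771) for 2 longer genes. In replicate 1 the intervals of the longer and shorter genes overlapped within each of these 4 types, and the shorter H2A genes had the higher ratio (1.02 against 0.860). Grouped instead by the current annotation (longest transcript over 1000 bases or more than 1 exon), which moved 5 members including *HIST1H2BK* to the short genes and 6 to the longer ones, the intervals overlapped in both numbers. The 15 longer genes had 0.901 (interval 0.797 to 1.02) in replicate 1 and 0.768 (interval 0.703 to 0.840) in replicate 2, and the 41 short genes 0.979 (interval 0.855 to 1.12) and 0.745 (interval 0.694 to 0.80), so the difference between the length classes depended on how length was assigned. For genes of few reads the recovered length may be too short, and this division was added after the data were seen.

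**Figure D5:**
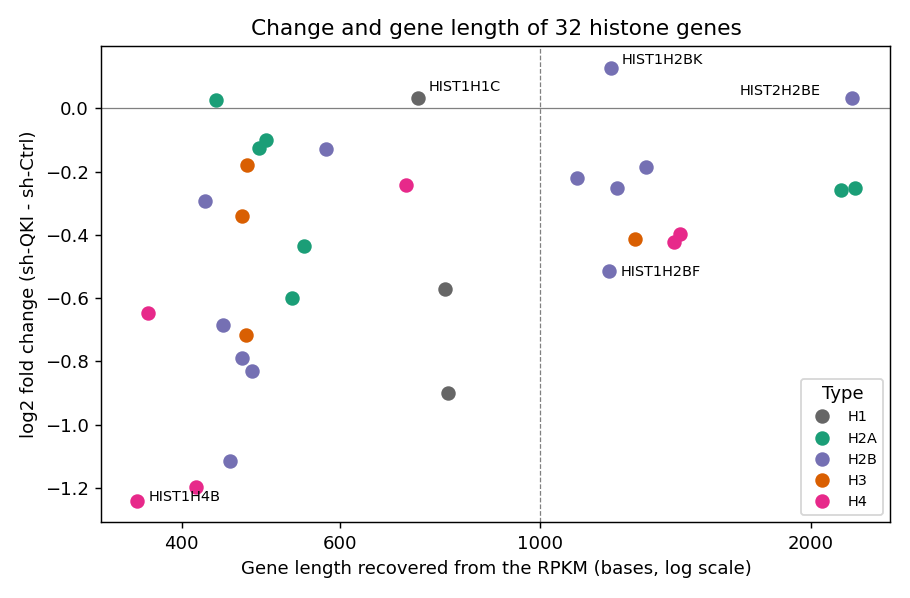
log2 fold change (QKI knockdown minus control, on log2(RPKM + 0.5)) against the gene length recovered from the RPKM (bases, log scale) for 32 histone genes that reached 0.5 RPKM in at least 1 group mean, coloured by type, with the dashed line at 1000 bases. The genes with the lowest values, *HIST1H4B*, *HIST1H4C* and *HIST1H2BL*, all lie left of the line, and the lowest gene right of it is *HIST1H2BF* (-0.51).

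The sequence similarity of genes within a type limited what a single gene value means. Coding sequences of equal length were 84.7% to 94.4% identical between H2B genes and 79.0% to 90.3% between H4 genes. The ranges were 77.7% to 92.8% between H2A genes and 80.9% to 88.2% between H3 genes. The authors left out reads that aligned ambiguously. Even so, a median of 99.4% of the 50-base windows of a matched member occur once in the genome, and 26 members had no repeated window. These shares count exact repeats only, whereas the authors allowed up to 3 mismatches. They are thus upper limits on the share of windows of the annotated exons that could be placed unambiguously. For some members these exons differ in length from the gene model behind the RPKM, with 495 against a recovered 1201 bases for *HIST1H2BK*. Bases of that model outside the annotated exons were not examined. For *HIST1H2BK* the share was 42.8% (61.0% with 75-base windows), and *HIST1H2AI*, *HIST1H2AJ*, *HIST1H4J* and *HIST2H2BF* were also under 50%. The 48 members with at least 90% unique windows had read ratios of 0.888 (interval 0.803 to 0.982) and 0.691 (interval 0.643 to 0.743). Exons of another annotated gene overlapped 11 members, among them *HIST1H2AC*, *HIST1H2BC* and *HIST1H4H*, and the 45 matched members without an overlap had ratios of 0.964 (interval 0.864 to 1.08) and 0.774 (interval 0.727 to 0.824).

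The 27 members under 0.5 RPKM in both group means reached at most 0.701 RPKM in any library. Of these, 15 were lower within both numbers and 0 higher within both, beside 23.5% and 15.6% of all 4753 genes so low. Over all 59 members, 41 were lower within replicate 1 and 55 within replicate 2, beside 46% and 42.4% of all listed genes. Many rested on single reads, as 23 members had under 20 reads in the 4 libraries together and 15 had at least 10 reads in every library. *HIST1H1T* and *HIST3H3*, which encode testis histones, had at most 1 read in any library.

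The genes that supply and process histone mRNA had median log2 fold changes near 0. Lists of these genes were drawn up from general knowledge, but with earlier results of these data known. Limma without a block called 0 genes of any list in either direction, nor did any reach an unadjusted p under 0.05 (0 genes). The same fit called 0 of all genes tested, *QKI* included, so it cannot show that a list was unchanged. The fits with the replicate block, by limma and by voom, called *QKI* lower and 0 genes of these lists. Of the 13 genes for 3′ end processing, 0 were over 2-fold apart and the median log2 fold change was 0.069. *SLBP*, which binds the stem-loop, was at 29.7 and 43.7 RPKM in the control libraries and 31.7 and 44 RPKM in the QKI-knockdown libraries. *LSM11*, a subunit of the U7 snRNP, was at 2.42 and 2.99 RPKM in the control libraries and 2.53 and 3.53 RPKM in the QKI-knockdown libraries. *ZNF473*, another protein of this machinery, had the largest log2 fold change of this list, 0.22. Of 3 listed genes for histone gene transcription, *NPAT*, the coactivator of these genes in S phase, was at 4.35 and 10.5 RPKM in the control libraries and 5.32 and 8.44 RPKM in the QKI-knockdown libraries, and the median was -0.020.

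The 14 histone chaperones had a median log2 fold change of 0.021, with *NASP*, a chaperone of H1 and of H3 with H4, at 39.0 and 39.4 RPKM in the control libraries and 38.6 and 34.6 RPKM in the QKI-knockdown libraries. *ATRX* was at 7.77 and 18.0 RPKM in the control libraries and 8.97 and 11.1 RPKM in the QKI-knockdown libraries, lower after knockdown in replicate 2 and not in replicate 1. The 12 replication-independent histones had a median of 0.065, and 0 of 12 were lower within both numbers while 7 were higher within both, beside 16.6% and 31.7% of all genes tested. Most of these genes lie outside the clusters and give polyadenylated mRNAs, and *H3F3B*, for example, was at 156 and 198 RPKM in the control libraries and 165 and 209 RPKM in the QKI-knockdown libraries. The macroH2A gene *H2AFY* was at 39.9 and 29.9 RPKM in the control libraries and 42.9 and 41.0 RPKM in the QKI-knockdown libraries. The 26 genes of S phase and mitosis had a median of 0.062, with 2 lower within both numbers, 11 higher within both (the shares over all genes tested are those just given) and 0 over 2-fold apart. *PCNA*, the sliding clamp of DNA replication, was at 228 and 310 RPKM in the control libraries and 234 and 313 RPKM in the QKI-knockdown libraries. *CCNE1*, a cyclin of S-phase entry, was at 4.53 and 3.77 RPKM in the control libraries and 6.30 and 5.53 RPKM in the QKI-knockdown libraries, and both QKI-knockdown libraries lay above both control libraries.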

How the data were processed

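Each library had 1 deposited table of RPKM values, which the authors made from single-end Illumina GAII reads of 2 lengths. They aligned the reads with Bowtie, allowing up to 3 mismatches, to hg19 (also named in the submitters' processing notes) and to exon junctions of Ensembl genes, without ambiguous reads. The sources used here do not give which library had which read length, the gene models behind the RPKM or the handling of strand. A gene not listed in a library was set to 0 RPKM. Whole reads were recovered for 100% of the values (relative tolerance 1e-11). Gene length is the smallest that gives whole reads, multiplied for 3 members in which it fell under the coding length, so for genes of few reads it may be too short. All genes whose mean reached 0.5 RPKM were tested on log2(RPKM + 0.5) in R 4.3.3 by limma 3.58.1 with its trend option, two-sided, with Benjamini-Hochberg adjustment over all 11829 genes, and fold changes on this scale understate those of low genes. Sums of RPKM were compared by an exact permutation test, for which 2 libraries against 2 cannot give p under 0.333. Genes named are QKI, members that reached 0.5 RPKM in a group mean, those over 2-fold apart within both replicate numbers, testis members, and the largest changes or defining genes of fixed lists. Genome features came from GRCh37 with GENCODE annotation. The members and lists were chosen with earlier results of these data known. *HIST1H2BF*, *HIST1H2BG* and *HIST1H4F* matched no annotated gene and have no genome features here. Alternatives were another pseudocount, limit, centring, replicate block, the voom method of limma on recovered reads and each library left out.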

Additional observations from a re-analysis of the deposited data

How the results depend on the processing

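Same-numbered libraries deviated together (correlation 0.953 across genes of the differences between replicates 2 and 1 in control and QKI-knockdown cells), but the labels name no culture, day or run that a number stands for, so whether the numbers pair the libraries is not known. The paper states 2 rounds of sequencing with different read lengths. Whether replicates 1 and 2 are these rounds is not given, so read length and replicate number may coincide. With the replicate block, limma called 43 genes lower (0.364%) and 58 higher (0.49%), of which 6 lower and 0 higher were histone genes (*HIST1H2BG*, *HIST1H2BL*, *HIST1H2BO*, *HIST1H3B*, *HIST1H4B* and *HIST1H4C*), against 0 without the block. The block with median centring gave 66 lower and 48 higher, with 7 histone genes lower, and voom with the block 68 lower and 69 higher, with 3 histone genes lower (*HIST1H2BL*, *HIST1H4B* and *HIST1H4C*). Of the genes named here, *HIST1H2BG*, *HIST1H2BL*, *HIST1H3B* and *HIST1H4C* had a QKI-knockdown mean under 0.5 RPKM. Of 24 members, 20 were below 0, beside 38% of all genes tested. After median centring, which put the median over all genes at -0.00077, 23 were below 0. *HIST1H1C* turned to -0.0023 with centring, with or without the block, and to -0.087 with voom and the block. *HIST2H2BE* turned to -0.0026 with centring, with or without the block, and *HIST2H2AC* to -0.0063 with centring, with or without the block, -0.0044 with a pseudocount of 0.1, -0.064 with voom and -0.022 with voom and the block. The H3 median was -0.76 with a pseudocount of 0.1, -0.30 with 1, -0.29 without a limit, -0.88 with voom and -0.86 with voom and the block. Members over 2-fold lower numbered 4 with a limit of 1 RPKM, 19 without a limit and 7 within both numbers (0.159% of all genes), and 3 were higher without a limit. Shares over all genes are not given for the other limits or with a library left out. Those counts therefore show only how the main count moved. The log2 ratio of summed RPKM without the highest member was -1.23 for H1 and -0.46 for H2B. The causes of these shifts were not tested.

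With each library left out in turn, limma called 0 to 2 genes lower and 0 to 2 higher, and 0 histone genes. Members over 2-fold lower ranged from 10 to 17 (17 without sh-QKI replicate 1) and those higher from 1 to 3 (3 without sh-Ctrl replicate 2). The H4 values nearest to 0 came without sh-QKI replicate 2. Over the tested members the median ranged from -0.46 to -0.27, that of H1 from -0.76 to 0.084, of H2A from -0.34 to 0.034, of H2B from -0.43 to -0.20, of H3 from -0.71 to -0.19, of H4 from -1.19 to -0.0076, of HIST1 from -0.46 to -0.29, of HIST2 from -0.30 to 0.36 and of HIST3 from -0.27 to 0.065. The log2 ratio of summed RPKM ranged from -0.87 to 0.58 for H1, -0.57 to 0.011 for H2A, -0.65 to 0.29 for H2B, -1.02 to -0.62 for H3 and -2.27 to -0.015 for H4. These comparisons used no replicate block, and with a library left out the groups no longer held the same replicate numbers. Differences between the replicate numbers thus enter all of these ranges. Some genes that changed sign, such as *HIST1H4H* and *HIST1H4E*, were lower within both numbers, whereas others, such as *HIST1H1C*, were not. Single genes that changed sign ranged as follows, in log2 fold change. They were -0.81 to 0.88 for *HIST1H1C*, -0.86 to 0.34 for *HIST1H2AC*, -0.54 to 0.034 for *HIST1H2AG*, -0.34 to 0.094 for *HIST1H2AM*, -0.96 to 0.37 for *HIST1H2BH*, -1.04 to 1.30 for *HIST1H2BK*, -0.30 to 0.039 for *HIST1H2BN*, -0.91 to 0.42 for *HIST1H4A*, -1.12 to 0.28 for *HIST1H4E*, -1.47 to 0.68 for *HIST1H4H*, -0.50 to 0.55 for *HIST2H2AC*, -0.63 to 0.70 for *HIST2H2BE* and -0.27 to 0.065 for *HIST3H2A*. With 23 members under 20 reads in total and 2 libraries a group, counting error alone leaves most single members unresolved.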
